A study of Homo sapiens with 3 samples.

Results

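The transcripts of 10 apolipoprotein genes (APOA1, APOA2, APOA5, APOB, APOC1, APOC2, APOC3, APOE, APOH and APOM) were examined in PLC, a long-established line of human liver cancer cells. The 10 genes were found by name in the gene tables, among 52477 named loci in all. There were 3 groups of 1 library each: the shDIS3L2 library, made from cells infected with viruses that carried short hairpin RNAs directed at DIS3L2 (a nuclease that digests RNA from its uridylated end), the shHNRNPU library with hairpins directed at HNRNPU (the gene of hnRNP U, an RNA-binding protein of the nucleus), and the control library with a non-targeting hairpin. All cells were harvested 48 hours after infection, so all 3 groups carry a virus and a hairpin. The labels do not say how many hairpins were used per target, and each group is 1 culture of 1 cell line. With 1 library per group there is no replicate check, no test and no p-value for any difference below.

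Apolipoproteins are the protein parts of the particles that carry lipids in blood, and the liver makes most of them. APOB forms the frame of very-low-density and low-density lipoproteins, APOA1 and APOA2 are the main proteins of high-density lipoprotein (HDL), and APOE is the ligand by which remnant particles bind to receptors on liver cells. The small C apolipoproteins exchange between particles and tune lipoprotein lipase, which APOC2 activates and APOC3 inhibits. APOH (beta-2-glycoprotein I) and APOM, a carrier of sphingosine-1-phosphate on HDL, differ from the others in structure. APOA1 and APOC3 are neighbours in a cluster on chromosome 11 with APOA5, and APOE, APOC1 and APOC2 lie together on chromosome 19.

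RefSeq promoter windows (GRCh38.p14, 250 bases before to 50 after the gene's start, read on the gene's own strand) were held for 7 of the 10 genes. The windows of the adjacent APOE (chr19:44905546-44905845, + strand) and APOC1 (chr19:44914422-44914721, + strand) are shown because these were the most abundant members and both were lower in shDIS3L2. That of APOA2 (chr1:161223579-161223878, - strand) is shown because it held a match to the motif of a family of liver factors. Capitals mark this match.
APOE: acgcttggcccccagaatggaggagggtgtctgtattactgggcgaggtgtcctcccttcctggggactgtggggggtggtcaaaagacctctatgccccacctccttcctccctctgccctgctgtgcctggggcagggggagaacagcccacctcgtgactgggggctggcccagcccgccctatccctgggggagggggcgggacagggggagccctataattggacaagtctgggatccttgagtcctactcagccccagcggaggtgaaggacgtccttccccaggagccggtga
APOC1: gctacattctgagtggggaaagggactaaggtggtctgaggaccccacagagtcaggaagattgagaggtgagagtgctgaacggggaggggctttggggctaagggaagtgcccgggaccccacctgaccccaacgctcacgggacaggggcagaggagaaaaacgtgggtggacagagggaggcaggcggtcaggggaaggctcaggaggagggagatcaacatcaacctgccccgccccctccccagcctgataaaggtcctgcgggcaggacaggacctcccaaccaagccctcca
APOA2: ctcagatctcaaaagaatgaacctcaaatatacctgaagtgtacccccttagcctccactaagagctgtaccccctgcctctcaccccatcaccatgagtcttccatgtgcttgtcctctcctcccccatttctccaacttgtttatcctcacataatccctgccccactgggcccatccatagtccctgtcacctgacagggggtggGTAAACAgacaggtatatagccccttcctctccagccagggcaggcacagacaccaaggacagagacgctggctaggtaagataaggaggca

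Both strands were searched for AGGTCA (bound by nuclear receptors), CAAAGTC (HNF4), TGTTTAC (forkhead factors such as FOXA) and TATAAA (the TATA box). APOA2 matched TGTTTAC on the opposite strand at positions 209 to 215. Over 35116 promoter windows of the same length, 3.42% held TGTTTAC. None of the 4 motifs was found in the windows of APOE, APOC1 and APOM, whereas APOA5 and APOC2 held AGGTCA (13.8% of all windows) and TATAAA (11.5%). APOC2 also matched CAAAGTC (3.37% of all windows). A match describes these letters and is not evidence of binding.

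Values are FPKM, a count of fragments scaled to transcript length and library size, with the deposited interval in parentheses. The interval was taken as 95% and covers the estimate within 1 library, not variation between cultures. Depth, estimated from single-exon genes, was 18600000, 20000000 and 23000000 fragments, to 3 digits, in shDIS3L2, shHNRNPU and control. The targeted genes followed the labels: DIS3L2 was at 3.23 FPKM (2.31 to 4.15) in shDIS3L2, against 7.61 (6.70 to 8.53) in control, and HNRNPU at 33.5 FPKM (31.8 to 35.2) in shHNRNPU, against 178 (172 to 184) in control, from a locus that also carries HNRNPU-AS1 in every library. Hepatocyte markers were listed above 0 in every library, with SERPINA1 (alpha-1-antitrypsin) highest, at 2865, 6710 and 11439 FPKM in shDIS3L2, shHNRNPU and control. In shDIS3L2 some were low, such as ALB (albumin) at 0.856 FPKM (0 to 2.38) and AHSG (fetuin-A) at 1.49 (1.01 to 1.97). Mitochondrial rows numbered 11, 10 and 0 in these tables, and whether this affects the scaling of FPKM is not known. In bulk RNA, fewer cells of a type and less RNA per cell cannot be told apart.

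The size rule for calling a gene higher or lower asked for a log2 ratio (taken on FPKM plus 1) of 1 or more in size, and for intervals that did not overlap. The deposited status of the estimate also had to be OK in both libraries. Of the 10 members, 8 had a mean FPKM of at least 1. APOA5 and APOC2 did not, and are given by value only. Against control, 5 of the 8 were lower and 0 higher in shDIS3L2, where 7.07% of all 11629 genes with a mean FPKM of at least 1 were called lower. In shHNRNPU, 3 of the 8 were lower and 0 higher, where 7.08% of all genes were called lower. The median log2 ratio of the 8 was -1.74 in shDIS3L2 and -0.84 in shHNRNPU, beside 0.09 and 0.12 over all genes tested. These comparisons share the control library. With libraries rescaled to equal total FPKM, 7 of the 8 were called lower in shDIS3L2 and 7 in shHNRNPU, where 18.9% and 25.8% of all genes were called lower (2200 and 3004 genes, with 413 and 349 higher). APOM is in these counts although it is listed at 0 in both knockdown libraries. The deposited status of these estimates was OK, but whether 0 is the true level was not tested. In shHNRNPU, APOM lies within a merged locus of its neighbours, described below. Over the 7 members above 0 in every library, 4 were lower in shDIS3L2 and 2 in shHNRNPU, with medians of -1.33 and -0.76. Among all genes above 0 in the libraries compared, 5.28% were called lower in shDIS3L2 and 5.28% in shHNRNPU.

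**Figure D1:**
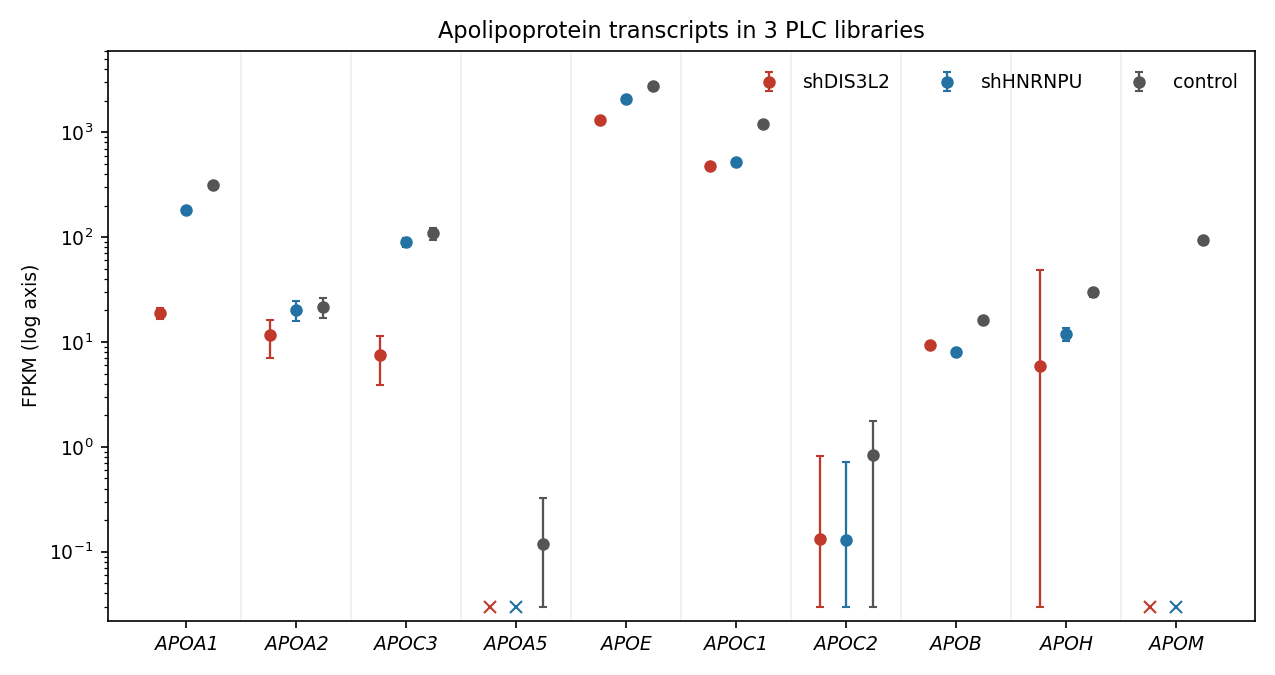
FPKM (log axis) of the 10 apolipoprotein genes in the shDIS3L2, shHNRNPU and control libraries, with 1 library per group. Points are FPKM, bars the deposited intervals (a lower bound of 0 is drawn to 0.03), and crosses mark genes listed at 0. APOA1 and APOC3 in shDIS3L2 lie far below both other libraries, while APOE and APOC1 stay the most abundant members in all 3.

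The HDL protein gene APOA1 (chromosome 11, 116706467 to 116708666, hg19) had the largest difference between shDIS3L2 and control among the members above 0. It stood at 18.9 FPKM (16.6 to 21.3) in shDIS3L2, 184 (175 to 193) in shHNRNPU and 311 (299 to 324) in control. The 3 intervals were separate, with shDIS3L2 at 6.08% of control and shHNRNPU at 59.0% of control. In rank among all named loci above 0, APOA1 was number 4491 of 16893 in shDIS3L2, 767 of 16566 in shHNRNPU and 420 of 16204 in control. The log2 ratio against control was -3.97 in shDIS3L2 (interval -4.15 to -3.79, carried over from the deposited bounds) and -0.76 in shHNRNPU (-0.85 to -0.67), so APOA1 passed the size rule in shDIS3L2 and missed it in shHNRNPU.

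APOC3, the lipase inhibitor (chromosome 11, 116700422 to 116703788), lies 2.68 kb from APOA1. Its level was 7.59 FPKM (3.88 to 11.3) in shDIS3L2, 89.0 (79.8 to 98.2) in shHNRNPU and 109 (94.6 to 123) in control. Here the shDIS3L2 interval lay below both others, and those of shHNRNPU and control overlapped. Log2 ratios were -3.67 (-4.32 to -3.02) in shDIS3L2 and -0.28 (-0.52 to -0.05) in shHNRNPU. Between the knockdowns, APOA1 and APOC3 were the 2 members called, both higher in shHNRNPU than in shDIS3L2, with log2 ratios of 3.21 (3.02 to 3.40) and 3.39 (2.75 to 4.03). In that comparison 9.99% of all genes were called higher, and 0 of the 8 members were lower.

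APOA2, the second protein of HDL (chromosome 1, 161192082 to 161193421), differed less between libraries. It was at 11.6 FPKM (7.07 to 16.2) in shDIS3L2, 20.4 (15.8 to 24.9) in shHNRNPU and 21.7 (17.0 to 26.5) in control. The shDIS3L2 interval lay just under that of control and overlapped that of shHNRNPU, and neither log2 ratio against control (-0.85 and -0.09) passed the size rule. APOA2 is a short transcript, and its interval reached 39.2%, 22.2% and 21.8% of the FPKM to either side in shDIS3L2, shHNRNPU and control, against 12.6%, 4.90% and 4.04% for APOA1. APOM (chromosome 6, 31620193 to 31625987) stood at 94.9 FPKM (89.3 to 101) in control and was listed at 0 in shDIS3L2 and in shHNRNPU. Its locus overlaps that of BAG6, a chaperone gene, which was at 306, 275 and 272.5 FPKM in shDIS3L2, shHNRNPU and control, the second merged with C6orf47 and GPANK1. C6orf47 starts 88 bases past APOM in control, so the merged locus in shHNRNPU spans APOM. Whether fragments of APOM were counted in that locus was not tested. In all, 78 genes at 5 FPKM or more in control were listed at 0 in both knockdowns, and no fold is given for APOM.

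**Figure D2:**
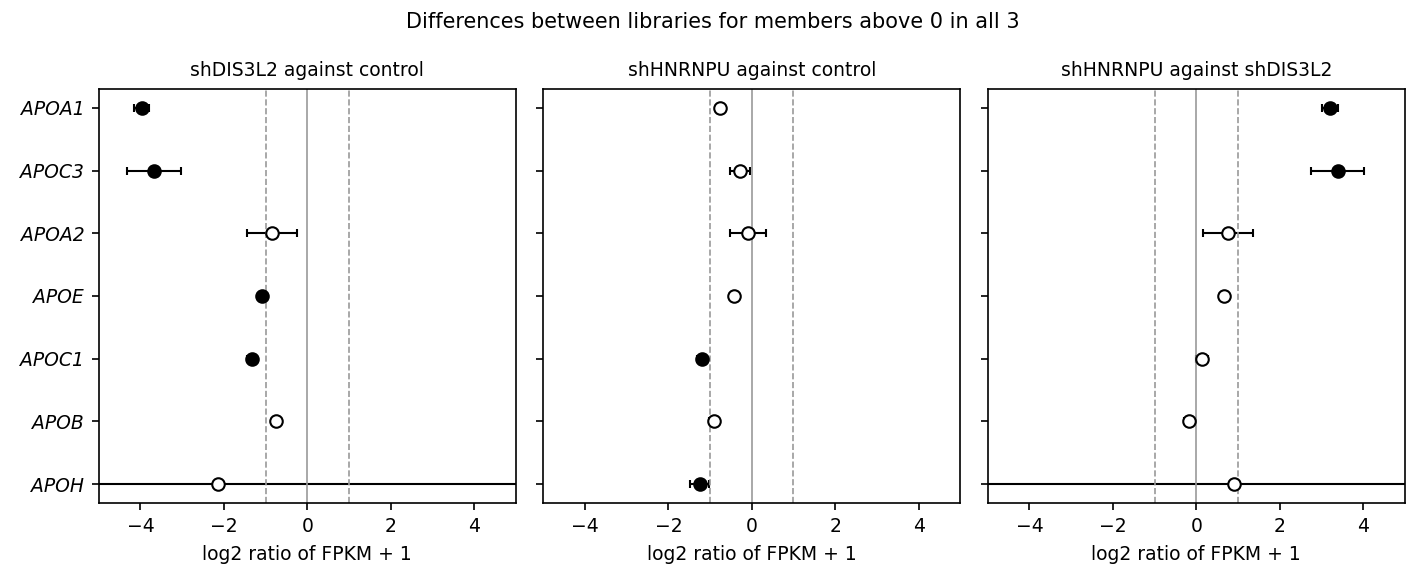
Log2 ratio of FPKM plus 1 for the 7 members above 0 in all 3 libraries, in 3 comparisons; the first 2 share the control library. Bars are intervals carried over from the deposited bounds, filled points pass the size rule and dashed lines mark log2 ratios of -1 and 1. APOA1 and APOC3 pass the rule in the outer panels (-3.97 and -3.67, then 3.21 and 3.39) and lie inside the dashed lines in the middle one, and the bars of APOH in shDIS3L2 run past the axis.

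Receptor ligand APOE (chromosome 19, 45409011 to 45412650 in control) was the most abundant member in every library. It reached 1314 FPKM (1263 to 1365) in shDIS3L2, 2069 (1982 to 2157) in shHNRNPU and 2791 (2674 to 2908) in control, ranks 116, 48 and 37. The intervals were separate and ran in that order, but the log2 ratio passed the size rule in shDIS3L2 (-1.09) and not in shHNRNPU (-0.43). In the shDIS3L2 table, APOE was merged with the adjacent TOMM40, a mitochondrial import channel gene, so its value there includes TOMM40. With APOE and TOMM40 summed in every library, the log2 ratio was -1.17 in shDIS3L2 and -0.38 in shHNRNPU.

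APOC1, which hinders remnant uptake (chromosome 19, 45417504 to 45422606), begins 4.85 kb past APOE. Its levels were 473 FPKM (442 to 504) in shDIS3L2, 520 (481 to 559) in shHNRNPU and 1193 (1141 to 1245) in control. Both knockdown intervals lay below that of control and overlapped each other, and both log2 ratios against control passed the size rule (-1.33 and -1.20). The control locus was merged with the pseudogene APOC1P1, a near copy that can share reads with it. Summed in every library, the gene and its pseudogene were at 474 FPKM in shDIS3L2, 523 in shHNRNPU and 1193 in control, with log2 ratios of -1.33 and -1.19. The lipase activator APOC2 was assembled together with APOC4 and the read-through APOC4-APOC2, at 0.133, 0.130 and 0.834 FPKM in shDIS3L2, shHNRNPU and control. Every one of those intervals began at 0, so no difference was detectable at this depth.

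APOB (chromosome 2, 21224301 to 21266945) was at 9.28 FPKM (8.74 to 9.81) in shDIS3L2, 8.08 (7.61 to 8.55) in shHNRNPU and 16.1 (15.3 to 16.9) in control. Its long transcript gave narrow intervals, which were separate in all 3 libraries. The log2 ratios of -0.74 and -0.92 fell short of the size rule, at 57.5% and 50.04% of control. With median-of-ratios rescaling, shHNRNPU passed it at -1.08, and with equal total FPKM both knockdowns did, at -1.30 in shDIS3L2 and -1.67 in shHNRNPU.

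APOH (chromosome 17, 64208151 to 64252643) was at 5.92 FPKM (0 to 48.7) in shDIS3L2, 11.9 (10.2 to 13.7) in shHNRNPU and 29.7 (27.1 to 32.3) in control. The shDIS3L2 estimate was so wide that it overlapped both others, and its log2 ratio of -2.15 is not a call. In shHNRNPU the interval lay below that of control and the log2 ratio of -1.25 (-1.48 to -1.02) passed the size rule. APOA5, which raises lipase activity, was at 0.120 FPKM (0 to 0.323) in control and listed at 0 in both knockdowns.

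Counting only whether intervals were separate, 7 of the 8 members lay below control in shDIS3L2 and 6 of 8 in shHNRNPU, with 0 above in either. Over all genes, 24.9% and 23.1% lay below control by that measure, and 33.0% and 35.1% above. Summed FPKM of the 10 members was 1841 (1767 to 1915) in shDIS3L2, 2903 (2806 to 2999) in shHNRNPU and 4567 (4438 to 4697) in control. APOE and APOC1 together gave 97.1%, 89.2% and 87.2% of that sum. The sum and share in shDIS3L2 include TOMM40, which alone was at 203 FPKM in shHNRNPU and 165 in control. Those in control include the pseudogene APOC1P1. Without APOE and APOC1, the other members summed to 53.5, 313 and 584 FPKM.

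Ratios between members within a library do not depend on how the library was scaled. APOA1 over APOA2 was 1.63 (1.08 to 2.46) in shDIS3L2, 9.02 (7.19 to 11.3) in shHNRNPU and 14.3 (11.5 to 17.9) in control. APOA1 over APOB was 2.04 (1.78 to 2.34), 22.7 (21.1 to 24.5) and 19.3 (18.1 to 20.6) in the same order, so the shDIS3L2 library stood apart from both others in this ratio. APOC3 over APOC1, both C apolipoproteins, was 0.0160 (0.00979 to 0.0263) in shDIS3L2, 0.171 (0.151 to 0.194) in shHNRNPU and 0.0911 (0.0795 to 0.104) in control. APOC3 over its neighbour APOA1 was 0.401 (0.242 to 0.664), 0.485 (0.432 to 0.544) and 0.349 (0.305 to 0.399), and the shDIS3L2 interval overlapped both others. The ratio of APOC1 to APOE was 0.360 (0.334 to 0.389), 0.251 (0.231 to 0.274) and 0.427 (0.402 to 0.454), with TOMM40 inside the first and APOC1P1 inside the third. Next to albumin (ALB, at 0.856, 5.21 and 11.8 FPKM), APOA1 was 22.1 (3.73 to 132), 35.2 (24.6 to 50.5) and 26.4 (22.8 to 30.6) times as high. These intervals overlapped, but that of ALB itself in shDIS3L2 was 0 to 2.38 FPKM. The first ratio thus has no upper limit, and 132 follows only from the way the interval was carried over.

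**Figure D3:**
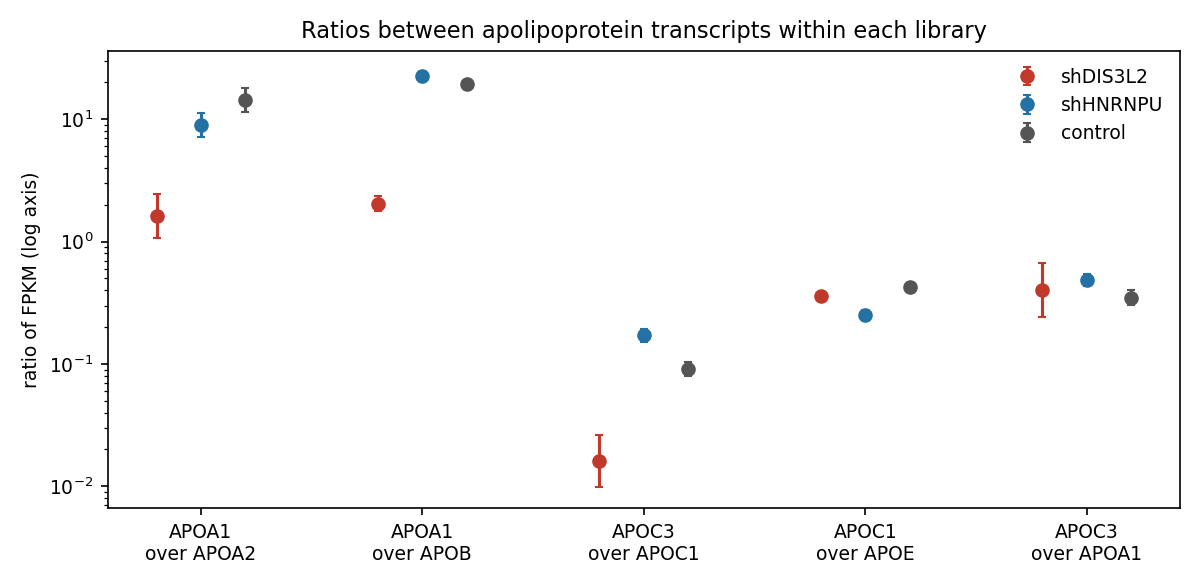
Ratios of FPKM between apolipoprotein genes within each library (log axis), with intervals carried over from the deposited bounds. Ratios with APOA1 or APOC3 on top and APOA2, APOB or APOC1 below are lowest in shDIS3L2, while APOC3 over APOA1 lies between 0.349 and 0.485 in all 3 libraries.

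Of 12 tested genes beside the clusters, 2 were lower and 1 higher in shDIS3L2, the higher being TOMM40 in its locus merged with APOE. In shHNRNPU 4 were lower, or 3 when only genes above 0 in both libraries are counted. Of all genes, 7.07% were called lower in shDIS3L2 and 7.08% in shHNRNPU, and 8.99% higher in shDIS3L2. On chromosome 11, BUD13, a splicing factor gene, had log2 ratios of 0.64 in shDIS3L2 and -0.05 in shHNRNPU, and SIK3, a kinase gene 5.45 kb past APOA1, had 0.07 and -0.33. ZNF259, the nearest expressed gene on the other side of APOA5, was at 57.0 FPKM (53.7 to 60.4) in shDIS3L2, 9.01 (7.88 to 10.1) in shHNRNPU and 32.4 (30.3 to 34.4) in control, and was called lower in shHNRNPU (-1.74). Its order across libraries thus differed from that of APOA1 and APOC3. APOA4, between APOC3 and APOA5, was at 0.0406, 0.112 and 0.258 FPKM. On chromosome 19, the cell adhesion gene PVRL2 had log2 ratios of 0.18 and 0.16 and CLPTM1 had 0.47 and 0.31, none of them past the size rule. BCAM, a laminin receptor gene, was lower in both (-1.01 and -1.09), with assembled bounds that differed between libraries.

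**Figure D4:**
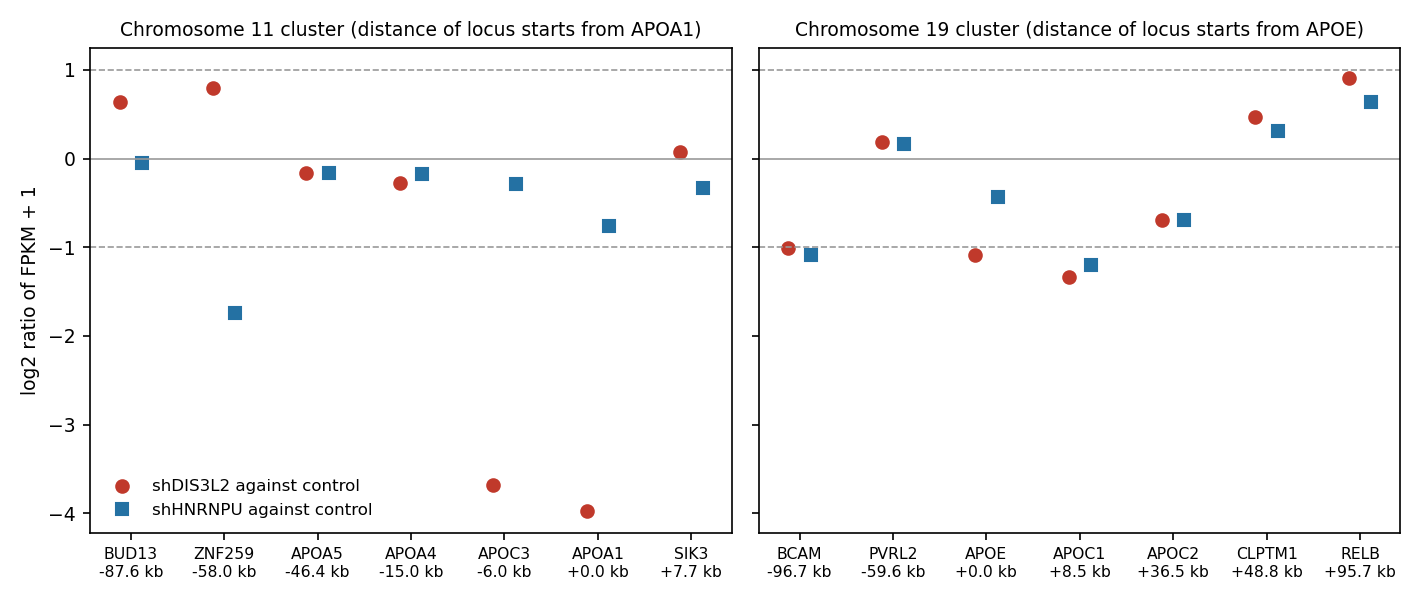
Log2 ratio of FPKM plus 1 against the shared control library for genes of the apolipoprotein clusters on chromosomes 11 and 19 and their neighbours, in order along the chromosome, with the distance of each locus start from that of APOA1 or APOE in kb. Dashed lines mark log2 ratios of -1 and 1. In shDIS3L2, APOC3 (-3.67) and APOA1 (-3.97) stand far below BUD13 (0.64) and SIK3 (0.07) on either side. TOMM40 is left out because it was merged with APOE in shDIS3L2. Other genes of the neighbour list are not drawn either, and some of these were called lower in a knockdown.

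Genes that act with apolipoproteins were taken from 7 lists, of which 68 loci had a mean FPKM of at least 1. Of these 68, 12 were lower and 5 higher in shDIS3L2, and 15 lower and 4 higher in shHNRNPU. Of all genes tested, 7.07% were called lower and 8.99% higher in shDIS3L2, and 7.08% and 8.34% in shHNRNPU. These shares also stand beside the counts of each list below. Among the 30 loci with the same bounds and 1 name in every library, 3 were lower and 3 higher in shDIS3L2. In shHNRNPU, 4 of these loci were lower and 3 higher. The share of all genes called under that filter was not computed. Among other apolipoproteins and lipoprotein-bound proteins, 0 of 6 were lower and 1 higher in shDIS3L2. The higher gene was CLU, clusterin or apolipoprotein J, at 736 FPKM (714 to 758) in shDIS3L2, 96.6 (91.7 to 101.5) in shHNRNPU and 299 (288 to 309) in control. Its order across libraries differed from that of APOA1, higher in shDIS3L2 and lower in shHNRNPU (-1.62). In shHNRNPU 2 of the 6 were lower: CLU and the merged locus of SAA2 and SAA4, serum amyloid A genes whose proteins ride on HDL, at 215, 66.7 and 341 FPKM in shDIS3L2, shHNRNPU and control.

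For lipoprotein assembly and secretion, 16 genes were tested. In shDIS3L2, 1 was higher and 0 lower, with a median log2 ratio of 0.10. The higher gene was SEC23A, a coat protein of vesicles leaving the endoplasmic reticulum, at 40.6 FPKM (38.1 to 43.0) in shDIS3L2 with a log2 ratio of 1.05, and with assembled bounds that differed between libraries. In shHNRNPU, 1 was higher and 3 lower. SAR1B, the GTPase needed for export of large lipoprotein particles, was higher there, at 17.98 FPKM (15.6 to 20.4) in shHNRNPU, against 3.09 (2.34 to 3.83) in control. P4HB, protein disulfide isomerase and a subunit of the microsomal triglyceride transfer protein, was lower there, at 284 FPKM (271 to 297) in shHNRNPU, against 613 (587 to 640) in control, and at 611 in shDIS3L2. The others lower in shHNRNPU were SEC24D (-1.47), a cargo adaptor of the same vesicles, and the chaperone CANX (-1.01). The CANX locus had bounds that differed between libraries and carried up to 2 names. MTTP, the large subunit that loads lipid onto APOB, was listed at 0 in shDIS3L2 and was at 0.130 FPKM in shHNRNPU and 0.137 in control, with intervals that began at 0.

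Among genes of HDL formation and remodelling, 2 of 5 were lower in shDIS3L2 and 1 of 5 in shHNRNPU, and 0 were higher in either. SCARB1, the HDL receptor, was at 26.2 FPKM (24.2 to 28.1) in shDIS3L2, 84.5 (80.9 to 88.1) in shHNRNPU and 98.5 (94.5 to 102) in control. It was called lower in shDIS3L2 (-1.87) and not in shHNRNPU (-0.22). Its scaffold protein gene PDZK1 was lower in both knockdowns (-1.78 and -1.22), with bounds that differed between libraries. ABCA1, which loads lipid onto APOA1, was at 2.55, 2.26 and 3.38 FPKM in shDIS3L2, shHNRNPU and control and passed the rule in neither knockdown.

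Of 8 uptake genes tested, 1 was higher and 1 lower in shDIS3L2, and 0 were higher and 3 lower in shHNRNPU. Those lower in shHNRNPU included the APOE receptors LRP1 (-1.26) and LRP8 (-1.03). LRP1 was at 9.93 FPKM (8.93 to 10.9) in shDIS3L2, 6.68 (5.70 to 7.67) in shHNRNPU and 17.4 (16.2 to 18.5) in control. LRP8 was at 14.3 FPKM (13.2 to 15.4) in shDIS3L2, 4.49 (3.69 to 5.29) in shHNRNPU and 10.2 (9.43 to 11.1) in control. LRP8 thus stood above control in shDIS3L2, by less than the size rule asks, and LRP1 below control in both knockdowns. Both genes had assembled bounds that differed between libraries.

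Among lipases and their regulators, 6 were tested, with 1 higher and 1 lower in shDIS3L2 and 1 higher and 2 lower in shHNRNPU. LIPC, hepatic lipase, was lower in both, at 23.8 FPKM in shDIS3L2, 14.5 in shHNRNPU and 69.7 in control, from loci whose bounds differed. ANGPTL4, a lipoprotein lipase inhibitor as APOC3 is, was higher in shDIS3L2, at 126 FPKM (120 to 133), against 58.5 (55.0 to 62.0) in control. In shHNRNPU the lipase maturation factor LMF1 was higher (1.33) and the protease gene FURIN lower (-1.63), each from a locus that carried up to 2 names. Of 5 tested genes of APOB RNA editing and stability, 0 passed the rule in either knockdown. A1CF, the cofactor of the APOB editing enzyme, was at 15.1 FPKM in shHNRNPU, just short of the rule, against 31.0 in control, while APOBEC1, the enzyme, was listed at 0 in every library.

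Transcription factors known to act on apolipoprotein genes numbered 22 tested, of which 8 were lower and 1 higher in shDIS3L2, and 4 lower and 2 higher in shHNRNPU. CREB3L3, a liver factor that activates Apoc2, Apoa4 and Apoa5 in mice, was at 0.903 FPKM (0.443 to 1.36) in shDIS3L2, 4.02 (3.31 to 4.72) in shHNRNPU and 7.74 (6.93 to 8.56) in control. ONECUT1, which works upstream of HNF4A, was at 8.61 FPKM (7.89 to 9.32) in shDIS3L2, 27.0 (24.9 to 29.2) in shHNRNPU and 32.8 (31.4 to 34.3) in control. Both stood lowest in shDIS3L2, with separate intervals, and in both the assembled bounds differed between libraries. CEBPA was lower in both knockdowns, at 25.9 FPKM in shDIS3L2, 19.9 in shHNRNPU and 71.7 in control, as were FOXA1 (-1.11 and -1.33) and HNF4G (-1.10 and -1.26). MLXIPL (-1.19), FOXA3 (-1.16) and SREBF1 (21.6 FPKM in shDIS3L2, against 44.3 in control) were lower in shDIS3L2 and did not pass in shHNRNPU. The higher gene in shDIS3L2 was the corepressor NR0B2 (1.12), which was lower in shHNRNPU (-1.36). Higher genes in shHNRNPU were CEBPB (1.25) and RORA (2.01), the second from values close to 0 in both other libraries. HNF4A itself, a main activator of the APOA1 and APOC3 genes in liver, was at 29.8 FPKM (28.1 to 31.6) in shDIS3L2, 45.8 (43.4 to 48.2) in shHNRNPU and 42.3 (40.2 to 44.5) in control. It passed the size rule in neither knockdown. Bounds also differed between libraries for FOXA1, HNF4G, MLXIPL and HNF4A, and the CEBPA locus carried up to 2 names.

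**Figure D5:**
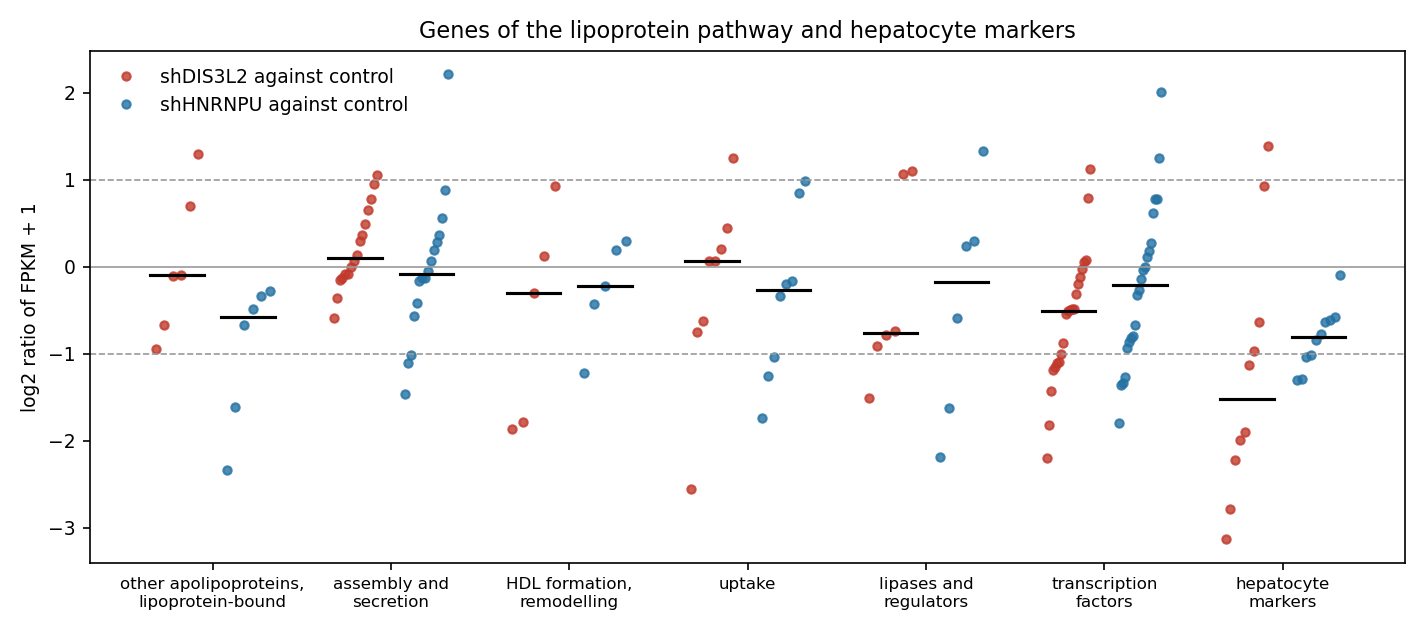
Log2 ratio of FPKM plus 1 against the shared control library for genes of 6 pathway lists and of the hepatocyte markers with a mean FPKM of at least 1. Points are genes, bars are list medians and dashed lines mark log2 ratios of -1 and 1. The medians of the pathway lists lie between -0.76 and 0.10 in shDIS3L2 and between -0.58 and -0.09 in shHNRNPU, and those of the hepatocyte markers at -1.52 and -0.81.

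Between the knockdowns, 9 of the 68 pathway loci were higher and 9 lower in shHNRNPU than in shDIS3L2, where 10.4% of all genes were called lower. Transcription factors made up 5 of those higher and 1 of those lower.

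Patterns most like those of 3 members were sought among 7763 genes with a mean FPKM of at least 5, by the distance between genes in the 2 log2 ratios against control, over 3 libraries. For APOC3 the nearest was ORM2 (distance 0.35), at 3.94, 41.3 and 48.6 FPKM in shDIS3L2, shHNRNPU and control, then ORM1 (0.39), at 17.96, 167 and 186 FPKM. Both encode orosomucoid, a plasma protein made by liver, and are near copies of each other that can share reads. For APOA1 the nearest were FXYD3 (0.69), a regulator of the sodium pump, and ORM2 (0.83). AC005329.7, merged with GAMT in control, came next for both members. MYBL2, a cell cycle transcription factor, lay next to APOB (0.036), behind the merged locus of PRRG1 (0.0018) and ahead of TOMM7 (0.047).

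Marker lists of cell types were set beside the members. Of 10 hepatocyte markers, 6 were lower and 1 higher in shDIS3L2, with a median log2 ratio of -1.52, and 4 were lower and 0 higher in shHNRNPU, with a median of -0.81. AHSG, fetuin-A, was at 1.49, 19.5 and 20.9 FPKM in shDIS3L2, shHNRNPU and control. TF, transferrin, was at 276, 843 and 1294 FPKM in the same order, from a locus that carried up to 3 gene names. FGB, a fibrinogen chain, ran the other way and was higher in shDIS3L2, at 17.9 FPKM, against 6.21 in control. The summed level of the list was 6105 FPKM in shDIS3L2, 10449 in shHNRNPU and 17817 in control, and none of its genes was at 0. Of 3 cholangiocyte markers tested, 2 were higher in shDIS3L2: KRT7 at 32.2, 6.08 and 7.04 FPKM and SOX9 at 10.0, 3.09 and 4.08 FPKM in shDIS3L2, shHNRNPU and control. That list summed to 133, 87.5 and 82.0 FPKM. Enterocyte markers, relevant because gut also makes APOA1, APOB and APOC3, summed to 4.40, 11.4 and 20.5 FPKM in shDIS3L2, shHNRNPU and control, with CDX1, FABP2 and SI at 0 in every library and with CDX2 and VIL1 lower in shDIS3L2. Without CD68, which lay in a merged locus, the other 6 macrophage markers summed to 1.69, 0.622 and 0.197 FPKM. Stellate cell markers summed to 1.19, 0.956 and 1.47 FPKM, endothelial markers to 0, 0.0423 and 0 FPKM, and astrocyte markers to 0.451, 0.0340 and 0.00788 FPKM. The part of these markers in the apolipoprotein results was not tested.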

How the data were processed

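RNA-seq of 3 PLC libraries, 1 per group, was used. Per the labels' protocols, total RNA from TRIZOL was cleaned with DNase, and libraries came from a NEBNext Ultra RNA kit that no label describes as stranded, so antisense transcripts cannot be separated. The authors deposited FPKM per gene with interval bounds for each library, and per the submitters' processing notes the tools were TopHat2 2.0.12 and Cufflinks 2.2.1 and the build was hg19. Loci were assembled separately in each library, so neighbouring genes can be merged in 1 library and apart in another.

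Genes were matched by name, and a name with several loci took the highest. Log2 ratios used FPKM plus 1, and their intervals were carried over from the deposited bounds, taken as 95%. Genes with a mean FPKM of at least 1 were tested by the size rule, and names that shared 1 locus in control counted once. Names merged only in a knockdown library each took the merged value and counted separately, as APOE and TOMM40 did in shDIS3L2. Depth was estimated from the deposited intervals of single-exon genes of at least 2000 bases with up to 20 fragments; intervals cover counting and assignment error only. The calculation was tested on simulated data. No label or header says that groups were prepared in separate batches. The genes named were all members, list genes past the size rule (up to 4 per list and comparison, largest first, plus genes a result turns on), neighbours and the 3 most similar genes. List genes beyond 4 or not past the rule (such as ABCA1, MTTP and HNF4A) and the cell type markers were singled out after their values were seen. Members and lists were chosen with earlier results of these data known. Alternatives covered the pseudocount, filters, size limits, scaling and merged loci. Python 3.11.15, pandas 2.3.3, numpy 2.4.6 and matplotlib 3.10.9 were used. Some genes of the lists are not reported here by name, though they count in the list totals, and a further promoter motif that was searched is not reported either.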

Additional observations from a re-analysis of the deposited data

How the results depend on the processing

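Of 235 values recomputed under other settings, 168 stayed within the main value's error (for counts, within 1.5 times) and 67 moved. As a call, 0 changed direction, which could be scored only for log2 ratios of members already called. This count says little, because a pseudocount cannot change the sign of a ratio. Besides, all members called against control were lower, and no rescaling raised those ratios. Rescaling could not move APOM, at 0 in both knockdowns, and the wide error of APOH in shDIS3L2 left it little room to move. Members called lower in shDIS3L2 numbered 5. They numbered 3 with a log2 limit of 2, and 3 with only loci of the same bounds and 1 name. Members called lower in shHNRNPU numbered 3, against 5 with a 1.5-fold limit, 1 with a log2 limit of 2 and 7 with equal total FPKM. For the other size limits, the pseudocounts and the filters on bounds and mean FPKM, the share of all genes called was not computed. Rescaling shifted log2 FPKM, before 1 is added, by -0.13 in shDIS3L2 and -0.18 in shHNRNPU with median-of-ratios. The shifts were -0.64 and -0.88 with equal total FPKM, and -0.12 and -0.10 with equal total over loci of at least 300 bases. Ratios of FPKM plus 1 shifted by less where FPKM was low. Loci under 300 bases held 70.7%, 75.6% and 58.2% of total FPKM in shDIS3L2, shHNRNPU and control. With equal total FPKM, APOA1 (-1.63), APOE (-1.31), APOC3 (-1.15) and APOB (-1.67) passed the size rule in shHNRNPU, and APOA2 (-1.42) and APOB (-1.30) in shDIS3L2, so that 7 members were called lower in each, where 18.9% of all genes were called lower in shDIS3L2 and 25.8% in shHNRNPU. APOB also passed in shHNRNPU with median-of-ratios (-1.08) and with equal total over longer loci (-1.01). Pathway genes lower in shDIS3L2 (12) became 7 with a pseudocount of 5, 3 with the same bounds and 1 name and 28 with equal totals; those higher (5) became 3, 3 and 0, with 2 under median-of-ratios and 3 with equal totals over loci of at least 300 bases. Those lower in shHNRNPU (15) became 8, 4 and 36 under the first 3 of these settings; those higher (4) became 7 with a pseudocount of 0.1, 2 with a pseudocount of 5, 2 with a mean FPKM of at least 5 and 1 with equal totals. Between the knockdowns, those lower in shHNRNPU (9) became 5 with the same bounds and 1 name, and those higher (9) became 5 with a pseudocount of 5 and 5 with equal totals. The summed FPKM of the members in shDIS3L2 (1841) became 1686 with median-of-ratios, 1185 with equal totals and 1689 with equal totals over longer loci. In shHNRNPU (2903) it became 2555, 1581 and 2705, and 2719 without APOA1, and in control (4567) it became 4256 without APOA1. The cause was not tested beyond what each setting changes by construction. The totals over longer loci, the summed merged loci, the pathway counts on matching bounds and the counts without genes at 0 were chosen after seeing the data. No paired analysis was possible because each group has 1 library, and for the same reason no library could be left out.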
